A study of Drosophila melanogaster with 3 samples.

Results

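The 10 genes described here are core genes of the Notch signalling pathway of Drosophila melanogaster, N, Dl, Ser, Su(H), H, mam, neur, numb, kuz and Psn, out of 13945 protein-coding genes. They were chosen by name, with earlier results of these data known, and every peak whose summit lay in the gene or within 5 kb of its ends was taken. The peaks came from chromatin immunoprecipitation and sequencing of Jumeau (gene jumu), a transcription factor of the forkhead family, in 3 biological replicates of whole embryos, a single group with no control sample analysed here. The embryos were 0 to 24 h old, of mixed sex, from 1 fly strain in which a MiMIC insertion places an eGFP exon within an intron of jumu, and the resulting Jumu-GFP fusion was precipitated with an antibody against GFP. Embryos of all these ages and all their cell types were pooled, so a peak cannot be assigned to a cell type or a stage. The labels call the replicates biological, and the spread between them is the error given below. Sequencing depth is unknown.

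Notch signalling passes between touching cells. A ligand of the Delta or Serrate type on one cell binds the Notch receptor on its neighbour, proteases cut the receptor, and the freed intracellular domain enters the nucleus and switches the DNA-binding protein Su(H) from repression to activation. In the fly embryo the pathway is known for choosing neural precursors by lateral inhibition and for the different fates of sibling cells after asymmetric divisions in the nervous system, muscle and heart. The question addressed was whether and where Jumeau peaks lay at the genes of this pathway.

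A peak is given by its signal, the value of the authors' peak caller. Peaks above the authors' threshold form the optimal list of 3845 peaks, whose weakest signal was 112.0. All of them were also entries of a longer pooled list of 29812 peaks, so a gene without an optimal peak can still have weaker pooled peaks. The reference sequence (RefSeq, Release 6 assembly, equal to dm6, plus strand) of 29 bases at the peaks that the results turn on is shown first. Capitals mark the words that were searched for, which are named with the results. A window without capitals is centred on the summit and held none.

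N intron peak, chrX:3162502-3162530: attcatatcgaatagaatacaattttaac
neur intron peak, chr3R:9032052-9032080: attattcatattGCGTCgttcgttgatat
neur 5′ peak, chr3R:9038927-9038955: gtgtgtgggtgGTGGGAAggtcacaaacc
kuz upstream peak, chr2L:13548212-13548240: taaggtatcataaaaaatcaagctcttta
Su(H) start site, weaker pooled peak, chr2L:15039485-15039513: cctatcggacTATCGATAcaacatcaaca
H start site, weaker pooled peak, chr3R:20621946-20621974: cttagttgacGGTCACACagcgcaccgag

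Optimal peaks lay at 5 of the 10 genes, N, mam, neur, numb and kuz, and at none of Dl, Ser, Su(H), H and Psn. Over all protein-coding genes 46.2% had an optimal summit in the gene or within 5 kb, so the count of 5 in 10 was near the background. The 13 optimal peaks comprised 4 at mam, 4 at neur, 2 at N, 2 at kuz and 1 at numb. At least 2 optimal peaks were found at 4 of the 10 genes, against 19.2% of all genes, and at least 4 at 2 of the 10, against 2.39%. A summit lay inside the gene itself in 4 of 10, against 10.9% of all genes. The members are long, with a median length of 22832.5 bp against 2166 bp for all protein-coding genes, and the genome-wide shares are not matched for length. Per length, the 10 loci, 400.8 kb in all, held 32.4 optimal peaks per Mb, against 28.7 per Mb over the 6 chromosome arms. The arms also include DNA far from genes, so these are not like regions. The density over the loci of all protein-coding genes is not given. Within 1 kb of an own start site, 4 of the 10 genes had a summit, N, mam, neur and numb, against 22.4% of all genes. Without replicate 1, 2 or 3, keeping optimal peaks that both other replicates ranked in their top 3845, 3, 3 and 4 genes and 4, 6 and 6 peaks were left, against 34.0%, 36.2% and 36.3% of all genes.

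**Figure D1:**
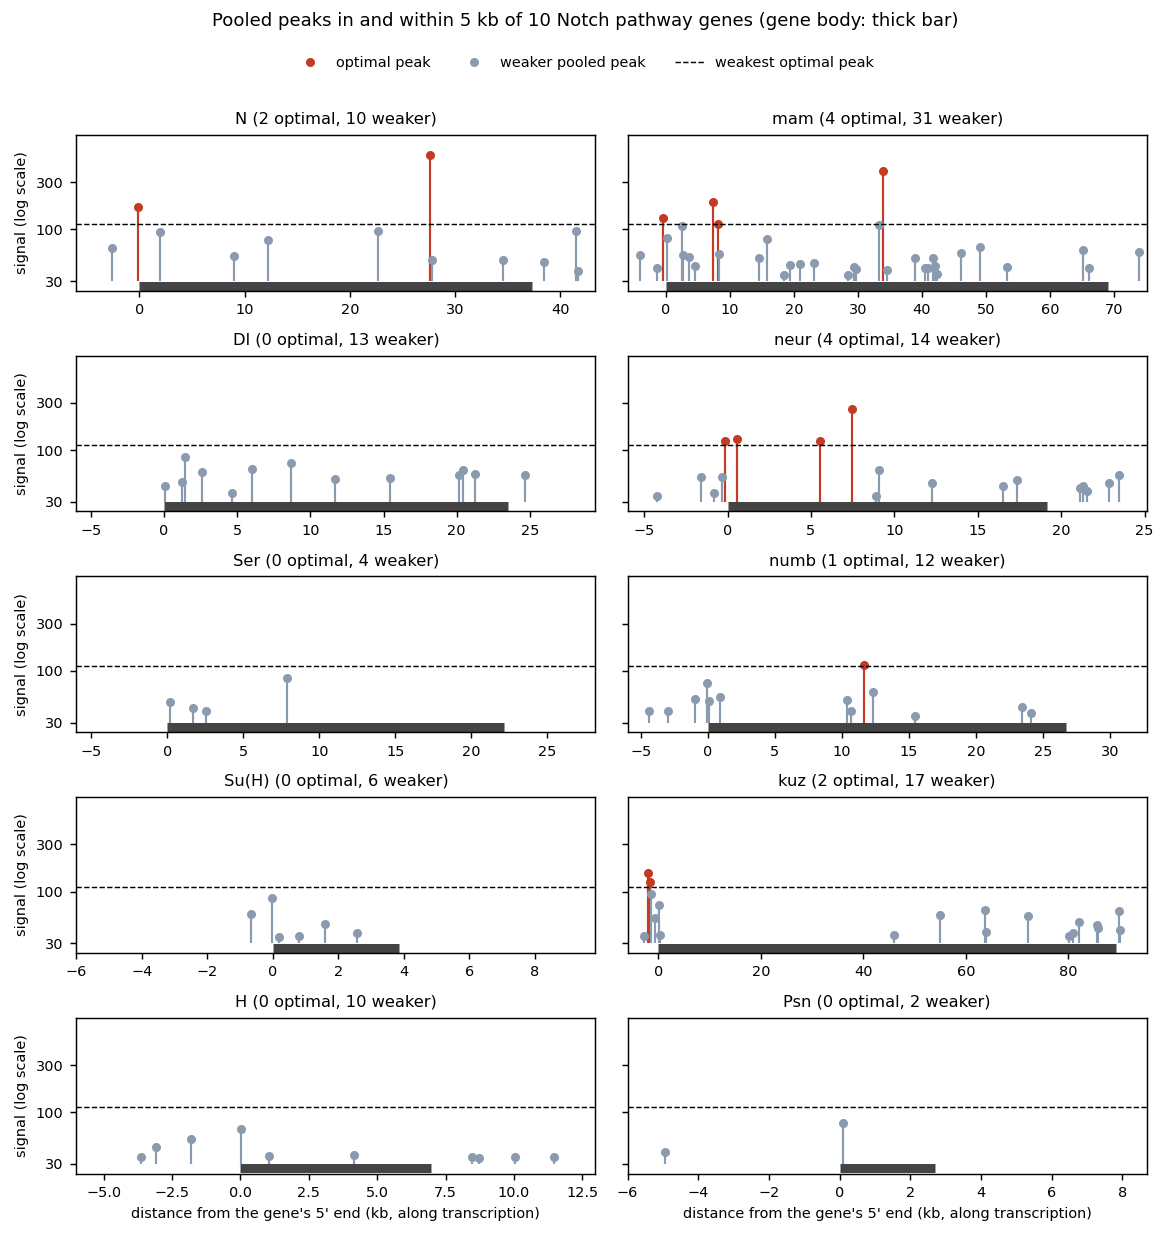
Pooled peaks at the 10 genes, with the distance of the summit from the gene's 5′ end along transcription (kb) on the horizontal axis and the peak signal on a logarithmic vertical axis. Red stems are the 13 optimal peaks, grey stems the 119 weaker pooled peaks, the dashed line is the weakest optimal signal of 112.0 and the thick bar is the gene. The intronic peaks of N and mam stand highest.

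The receptor gene N (FBgn0004647, X, 3134870 to 3172221, plus strand) carried the strongest peak of the 10 genes, deep inside the gene. It lay in intron 5 (X, 3162384 to 3162614), 27646 bp downstream of the start site, with a signal of 566 and rank 219 of the 3845 optimal peaks. The 3 replicates gave it signals of 233, 133 and 198, at ranks 220, 416 and 131 of 30000 peaks each. It was thus near the top of every replicate list, and the summits of the replicates lay within 38 bp of each other. Scaled to the median of each replicate's matched optimal peaks, which is called relative signal below, it stood at 3.12, 2.29 and 3.63, or 3.01 ± 0.68 (SD, n = 3). The nearest start site of another gene, CG18508, was 10624 bp away, nearer than that of N but beyond the far end of N. A second, weaker peak lay at the promoter of N (X, 3134516 to 3134935, signal 169, 144 bp upstream of the start site, which was the nearest of any gene). Its relative signal was 0.85, 0.73 and 1.28 in replicates 1, 2 and 3, or 0.95 ± 0.29 (SD, n = 3). The promoter peak was at about the median of all optimal peaks, and in each replicate it was below the intronic one. The other 10 pooled peaks at N were weaker than the threshold, the strongest of them with a signal of 97.1 in an intron (X, 3157333 to 3157752).

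Neither gene for a Notch ligand had an optimal peak. Dl (FBgn0000463, 3R, 19302731 to 19326217, minus strand, listed in the annotation as Delta) encodes Delta, the ligand of lateral inhibition, and Ser (FBgn0004197, 3R, 27172090 to 27194267, minus strand) encodes Serrate. At Dl there were 13 pooled peaks, 12 of them in the gene, against 7.46 for the gene and its flanks at the genome-wide density, with signals from 37.2 to 84.9. The strongest lay in intron 1 (3R, 19324557 to 19324976), 1450 bp downstream of the start site, and reached 75.8% of the weakest optimal signal. Its relative signal was 0.48, 0.64 and 0.44 in replicates 1, 2 and 3, a mean of 0.52 ± 0.11 (SD, n = 3). It was matched in all 3 replicates, and in replicate 2, where it was highest, it ranked 3577 of 30000 and so was among the 3845 strongest. The nearest optimal summit to Dl beyond 5 kb was 76055 bp from the end of the gene, at the promoter of vib. At Ser there were 4 pooled peaks, against 7.17 at the genome-wide density, the strongest in intron 4 (3R, 27186175 to 27186594, 7610 bp downstream of the start site, signal 84.3). Its relative signal was 0.41, 0.38 and 0.54, or 0.44 ± 0.09 (SD, n = 3). This weak intronic peak was the strongest peak of Ser in each replicate, with summits within 95 bp of each other, while no peak of Ser was among the 3845 strongest of any replicate.

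Proteins that cut the receptor are encoded by kuz and Psn. Kuzbanian is the ADAM metalloprotease that sheds the extracellular part, and Presenilin is the catalytic subunit of γ-secretase, which releases the intracellular domain. The kuz gene (FBgn0259984, 2L, 13550139 to 13639411, plus strand), the longest of the 10, had 2 optimal peaks, both upstream of it and none in its 89273 bp. They overlapped by 217 bp, so they are neighbouring summits of 1 stretch (2L, 13548016 to 13548435, signal 154, and 13548219 to 13548638, signal 124). They lay 1913 and 1710 bp upstream of the start site of kuz and inside the neighbouring gene B4, whose nearest start site was only 455 and 658 bp away. The first peak had a relative signal of 1.00, 0.85 and 0.50 in replicates 1, 2 and 3, or 0.78 ± 0.26 (SD, n = 3). Replicate 3 was lowest there, with rank 6958 of 30000, and its strongest peak at kuz lay nearer to the gene, 1435 bp upstream of the start site. Within kuz the strongest pooled peak was at the start site (2L, 13550004 to 13550423, signal 72.6), and replicate 2 had no summit within 100 bp of it. Psn (FBgn0284421, 3L, 20432468 to 20435156, plus strand), the shortest of the 10, had 2 pooled peaks and no optimal one. The stronger of them lay at the start sites of Psn (3L, 20432359 to 20432778, signal 77.2), with a relative signal of 0.49 in replicate 1 and 0.45 in replicate 3, or 0.47 ± 0.03 (SD, n = 2). The nearest summit of replicate 2 was 1745 bp away.

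The nuclear factors act on the target genes: Su(H), the DNA-binding protein of the pathway, mam, whose product Mastermind joins the Notch intracellular domain as a co-activator, and H, whose product Hairless makes Su(H) a repressor. Among them only mam had optimal peaks. The mam gene (FBgn0002643, 2R, 13991203 to 14060356, plus strand) had 4, against 2.27 for its length at the genome-wide density. The strongest was a narrow intronic peak of 107 bp (2R, 14025171 to 14025277, signal 393, rank 478), 6474 bp upstream of the nearest of the 3 start sites of mam. It had a relative signal of 2.29, 1.95 and 2.11 in replicates 1, 2 and 3, or 2.12 ± 0.17 (SD, n = 3). It was among the 3845 strongest peaks of every replicate. The start site of CG18371, a gene within mam, was nearer, at 3431 bp. A pair of intronic peaks lay 769 bp apart near the 5′ end of the gene (2R, 13998341 to 13998760, signal 190, and 13999110 to 13999529, signal 113). Their relative signal was 1.02 and 0.43 in replicate 1 and 1.33 and 0.69 in replicate 3. The nearest summit of replicate 2 was 1185 bp from the first and 1954 bp from the other, so both rested on replicates 1 and 3. The last peak (2R, 13990557 to 13990976, signal 131) lay 436 bp upstream of the first start site of mam but only 60 bp from that of RN-tre, which is transcribed away from mam. It had the highest CV among the 13, 53.2%, with a relative signal of 0.34, 1.06 and 0.64, or 0.68 ± 0.36 (SD, n = 3), and ranks of 9389, 1682 and 4192.

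Su(H) (FBgn0004837, 2L, 15039488 to 15043334, plus strand) had 6 pooled peaks, of which the strongest covered its start site (2L, 15039251 to 15039670, signal 85.9, summit 27 bp upstream). It had a relative signal of 0.78 in replicate 1 and 0.30 in replicate 2, at ranks 2802 and 23240. Replicate 3 had no summit within 100 bp, the nearest being 155 bp away with a relative signal of 0.30. This promoter peak was thus among the 3845 strongest of replicate 1, low in the list of replicate 2 and unmatched in replicate 3. H (FBgn0001169, 3R, 20621938 to 20628915, plus strand) had 10 pooled peaks in the gene and its flanks, against 3.78 at the genome-wide density, with signals from 34.8 to 67.2. Only 3 of them lay in H itself, and the others lay in the flanks, most of them nearer to a start site of CG5466 or Pi3K92E. The strongest covered its start site (3R, 20621754 to 20622173, summit 26 bp downstream). Relative to the medians it stood at 0.22 and 0.29 in replicates 1 and 2 and 0.66 in replicate 3, or 0.39 ± 0.24 (SD, n = 3). Replicate 3 stood above the other replicates there. An optimal peak just outside the window, 5301 bp from the end of H (3R, 20634006 to 20634425, signal 245), lay in the 5′ UTR of the next gene, 516 bp from a start site of Pi3K92E.

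The products of neur and numb act on trafficking. Neuralized is an E3 ubiquitin ligase that drives endocytosis of Delta in the signalling cell, and Numb, which is inherited by 1 daughter of an asymmetric division, inhibits Notch there. The neur gene (FBgn0002932, 3R, 9020348 to 9039471, minus strand) had 4 optimal peaks in a locus of 29.1 kb, against 0.84 for that length at the genome-wide density. The strongest lay in an intron (3R, 9031819 to 9032238, signal 260, rank 1082), 1702 bp downstream of the internal start site of neur. Its relative signal was 1.43, 1.48 and 1.07 in replicates 1, 2 and 3, or 1.33 ± 0.22 (SD, n = 3). All 3 replicates were above the median of their matched optimal peaks. Another peak lay 183 bp upstream of that internal start site (3R, 9033704 to 9034123, signal 122), with a relative signal of 0.78 and 0.82 in replicates 1 and 2. The remaining 2 flanked the distal start site, where neur overlaps the 5′ end of the gene hyx on the opposite strand. One (3R, 9038686 to 9039105, signal 130) lay 136 bp downstream of a start site of hyx and 575 bp downstream of that of neur. The other (3R, 9039416 to 9039835, signal 123) lay 140 bp upstream of a second start site of hyx and 155 bp upstream of that of neur, so that these peaks cannot be given to either gene by position. Each of the 3 weaker peaks of neur was matched in 2 replicates, the first of this pair not in replicate 2 and the others not in replicate 3.

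The numb gene (FBgn0002973, 2L, 9437469 to 9464184, plus strand) had 1 optimal peak, close to the authors' threshold. It lay in intron 2 (2L, 9448891 to 9449310, signal 115.3, rank 3683), 729 bp upstream of the internal start site of numb. Here the relative signal was 0.58 in replicate 1 and 0.71 in replicate 3, or 0.64 ± 0.09 (SD, n = 2), while the nearest summit of replicate 2 was 134 bp away with a relative signal of 0.64. The 3 replicates thus had similar weak peaks in this stretch. The strongest peak of the whole locus was elsewhere in replicate 1, 55 bp upstream of the distal start site. In replicate 3 it was also not the matched one, with a summit 876 bp upstream of the internal start site and a relative signal of 0.77. The strongest summits of the replicates were spread over 11821 bp through replicate 1, while those of replicates 2 and 3 (9449235 and 9448954) both lay within the optimal peak.

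Set in order of relative signal, the strongest optimal peaks ran from N (3.01) to mam (2.12), neur (1.33), kuz (0.78) and numb (0.64). Within each of the 3 replicates N was above mam, mam above neur and neur above kuz, while kuz and numb overlapped, with kuz higher in replicate 1 and numb higher in replicate 3. The lowest value of N, 2.29 in replicate 2, only just reached the highest of mam, also 2.29, in replicate 1. The CV of the relative signal was 22.5% for the N peak, 7.96% for mam, 16.7% for neur and 33.4% for kuz, against a median of 18.8% over all optimal peaks matched in 3 replicates. The strongest weaker peaks of Su(H), Dl, Psn, Ser and H averaged 0.54, 0.52, 0.47, 0.44 and 0.39, and these overlapped each other. The ranges of Su(H), Dl and H over the replicates also overlapped that of the optimal peak of numb, while those of Psn and Ser lay below it. Within replicates 1 and 3, where the numb peak was matched, only the Su(H) peak stood above it, in replicate 1. At mam the peaks just inside and just outside the threshold were close. Its weakest optimal peak had a signal of 112.6 and its next pooled peaks, both intronic, 110.1 (2R, 14024272 to 14024691) and 107.1 (2R, 13993529 to 13993948).

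**Figure D2:**
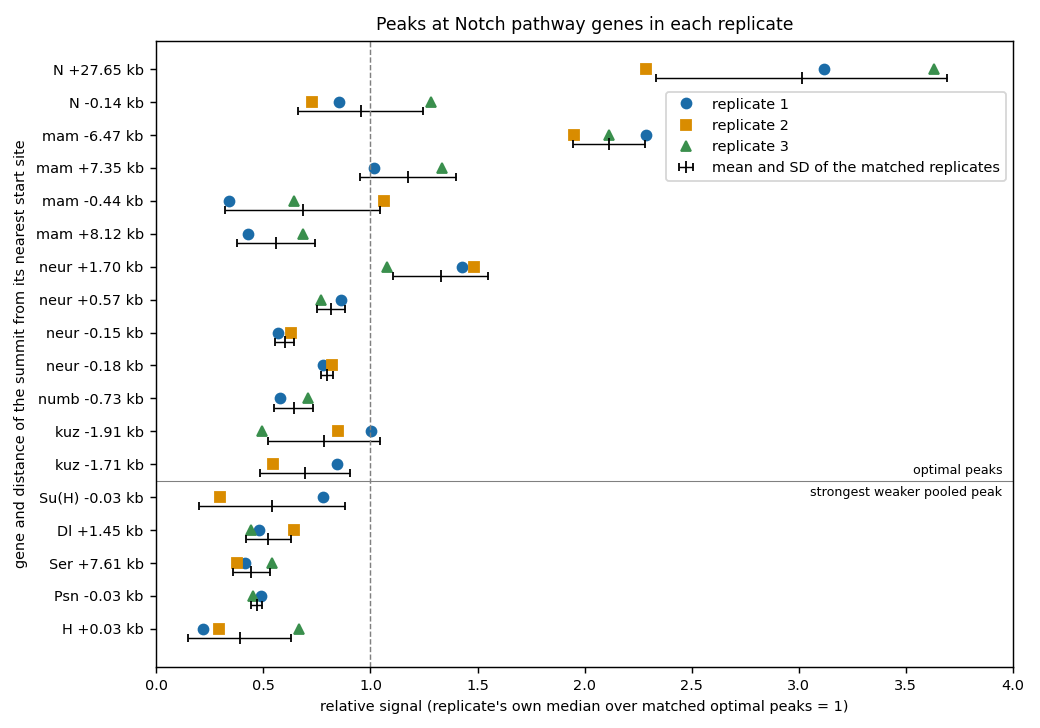
Relative signal of the 13 optimal peaks (upper part) and of the strongest pooled peak of the 5 genes without one (lower part), with 1 symbol per replicate that had a summit within 100 bp and the mean and SD of those replicates beneath. The horizontal axis is the replicate's signal divided by its median over matched optimal peaks, and each label gives the gene and the distance of the summit to its nearest own start site (kb, minus for upstream). The N intron peak lies from 2.29 to 3.63 and the peaks of the lower part lie below 0.8.

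Agreement between replicates was counted by summits. Of the 13 peaks, 6 had a summit of all 3 replicates within 100 bp and the other 7 of 2 replicates, while 88.7% of all optimal peaks were matched in all 3. No test of this difference was made. Replicate 1 matched all 13, replicate 2 lacked 4 (2 at mam, 1 at neur and 1 at numb) and replicate 3 lacked 3 (2 at neur and 1 at kuz). Of all optimal peaks, replicates 1, 2 and 3 matched 97.9%, 94.3% and 95.4%. Most of the 13 peaks were weak, with a median signal of 131 against 181 for the whole list. Of the 9 below the median of the optimal list, 3 were matched in all 3 replicates, against 81.8% of all optimal peaks below it, and of the 4 above it 3 were, against 95.6%. By overlap of the intervals in place of summits, 10 of the 13 were matched in all 3, against 97.8%, which left the pair in mam and 1 of the neur peaks that replicate 2 lacked. Without replicate 2 the count of peaks matched in both others was 10, without replicate 3 it was 9 and without replicate 1 it was 6. The 3845 strongest peaks of every replicate held 4 of the 13, namely both peaks of N, the strongest of mam and the strongest of neur. The share of all optimal peaks is not given for this count or for the counts without a replicate, so they cannot be read as high or low.

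The replicate lists were also read on their own, without the pooled list. The 3 replicates had 136, 97 and 123 peaks at the 10 loci. At N, mam, neur and Ser the strongest summits of the 3 replicates lay within 100 bp of each other. At the other 6 genes they were spread over 503 bp (kuz) to 11821 bp (numb), and at H over 5984 bp, with the strongest peak of replicate 1 in coding sequence 4184 bp downstream of the start site, that of replicate 2 at 1800 bp upstream and that of replicate 3 at the start site. At Su(H) the strongest peak of replicate 3 lay 43 bp from the start site of the neighbour CIAPIN1, and at Psn that of replicate 3 lay 668 bp from that of CG5262. Peaks among the 3845 strongest were found in every replicate at N, mam, neur and kuz and in none at Ser and Psn. None of these counts of genes is given over all protein-coding genes, so they have no background here.

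By position, 6 of the 13 optimal summits lay within 500 bp of a start site of some gene and 7 in introns, and none lay in coding sequence, UTRs or intergenic DNA. Promoter summits made up 57.5% and intronic ones 28.7% of all optimal peaks. Intergenic summits made up 11.4% of them, coding sequence 0.494%, 5′ UTRs 0.546% and 3′ UTRs 0.624%, so none in coding sequence or UTRs was near the background. The loci were taken as long genes with their flanks, and the shares of all optimal peaks are not matched for that. The intronic summit near kuz lay outside kuz, within B4. The 4 strongest peaks, at N, mam (2) and neur, were all intronic, and all 6 promoter peaks had a signal below the median of the optimal list. Without replicate 1, 2 or 3 the count of promoter peaks was 1 of the 4 peaks left, 2 of 6 and 3 of 6. The promoter shares over all peaks of these smaller sets are not given. In 8 of the 13 peaks another gene's start site was nearer than the member's own. That was so for the strongest peak of N, mam and kuz, in 3 of the 5 genes with an optimal peak, whereas in N and mam that peak lay inside the member. These counts are not given over all protein-coding genes, so they have no background here and are not a trait of these genes. The other genes nearest to the 8 peaks were CG18508, CG18371, RN-tre, a short non-coding RNA entry within mam, hyx for 2 and B4 for 2.

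**Figure D3:**
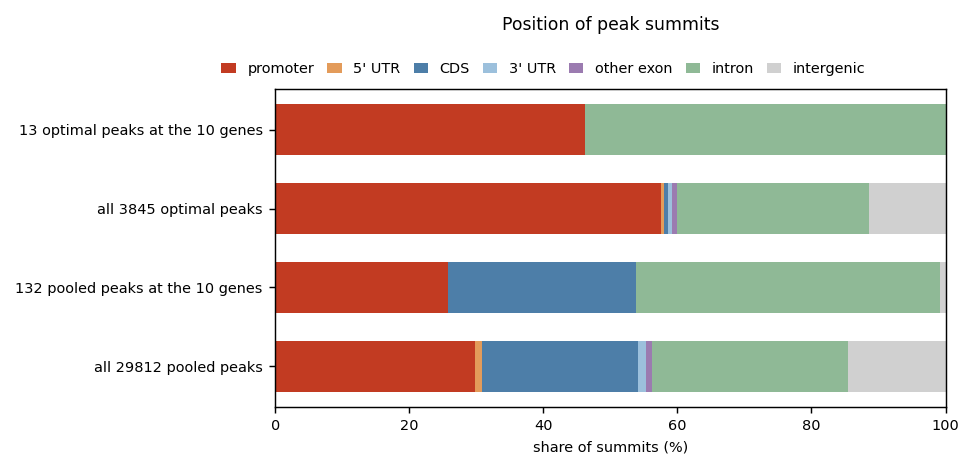
Share of summits (%) by position for the 13 optimal peaks at the 10 genes, all 3845 optimal peaks, the 132 pooled peaks at the 10 genes and all 29812 pooled peaks. Optimal peaks at the 10 genes were either promoter (46.2%) or intronic (53.8%). The pooled peaks at these genes were also found in coding sequence of these genes or their neighbours (28.0%, against 23.2% of all pooled peaks).

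The pooled list had at least 1 peak at each of the 10 genes, as it did at 91.4% of all protein-coding genes. In all there were 132 pooled peaks, or 329 per Mb against 223 per Mb over the arms. Of these, 119 were below the threshold, with a median signal of 47.9 against 47.0 for all such peaks. They were 31 at mam, 17 at kuz, 14 at neur, 13 at Dl, 12 at numb, 10 each at N and H, 6 at Su(H), 4 at Ser and 2 at Psn. Among the weaker peaks 37 lay in coding sequence of these genes or of their neighbours. That was 28.0% of the 132 pooled peaks, against 23.2% of all pooled peaks. Intronic summits made up 45.5% of the 132, against 29.3%, and intergenic ones 0.758%, against 14.5%. Of the 119 weaker peaks 19 (16.0%) were matched in all 3 replicates, against 13.4% of all weaker pooled peaks. No replicate had a summit within 100 bp of 9 of the 119 (7.56%, against 9.01%). The median signal and the matched shares of the weaker peaks were thus near those of weaker peaks in general. The shares by position of the 132 were not all near those of all pooled peaks. No test of these differences was made.

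**Figure D4:**
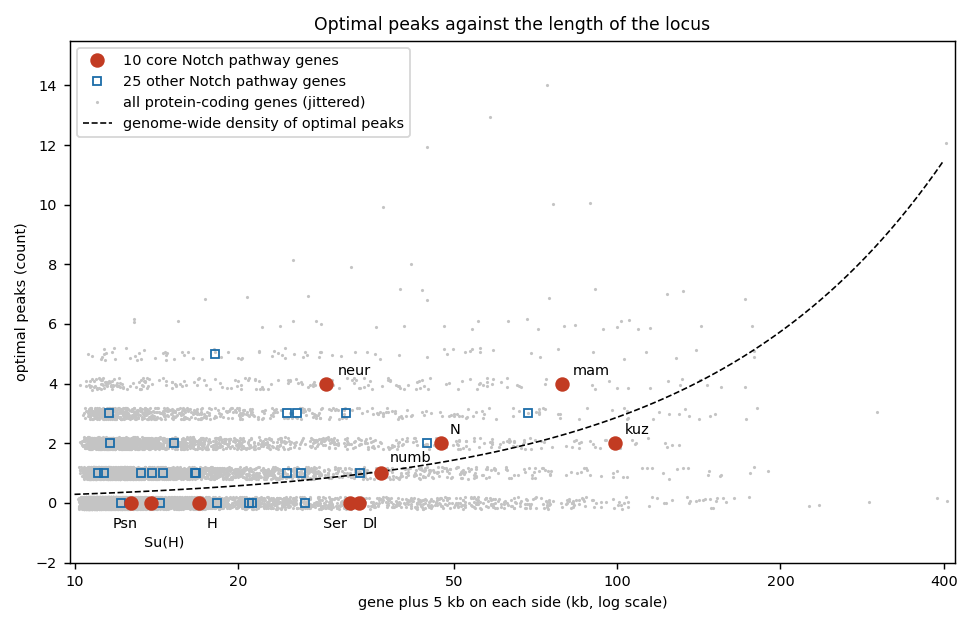
Number of optimal peaks against the length of the gene plus 5 kb on each side (kb, logarithmic axis) for the 10 core genes (red), 25 other Notch pathway genes (blue squares) and all protein-coding genes (grey, with a small vertical jitter). The dashed line is the count at the genome-wide density of 28.7 optimal peaks per Mb. The neur and mam genes, with 4 peaks each, lie above the line and kuz, with 2, below it.

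Sequence words of known factors were looked for within 50 bp of each summit, on either strand. Those for forkhead factors were TAAACA, its longer form GTAAACA, and the separate word GACGC. Of the 13 peaks 1 held TAAACA, the intronic peak of mam with a signal of 190, against 13.4% of all optimal peaks, none held GTAAACA (3.56%), and 1 held GACGC, the strongest peak of neur, 37 bp from the summit and on the minus strand, so that it is printed above as its reverse complement (6.58%). A forkhead word of any kind was thus held by 2 of the 13, against 19.3% of all optimal peaks. Leaving out replicate 1 left 1 such peak among 4, leaving out replicate 2 left 2 among 6 and leaving out replicate 3 left 1 among 6. The strongest peak, in the intron of N, held none of the words searched. The peak at the 5′ end of neur held GTGGGAA, a form of the Su(H) site, 45 bp from the summit, which 0.936% of all optimal peaks had, and no peak held GTGAGAA, another form (1.22%). The weakest peak of mam held GAGAG, the core of the GAGA factor site (10.7% of all). No optimal peak of these genes held TATCGATA, the DRE of the core promoter factor DREF (3.09%), or GGTCACAC, part of core promoter motif 1 (1.74%). Among the weaker pooled peaks printed above, that at the start site of Su(H) held TATCGATA, found in 1.02% of all pooled peaks, and that at the start site of H held GGTCACAC, found in 0.919%. The strongest weaker peaks of Dl, Ser and Psn held none of the words. A weaker peak at neur held both GGTCACAC and TAAACA (3R, 9039615 to 9040034). Forkhead words lay in other weaker peaks too, such as GTAAACA in peaks near N, H and kuz, a word found in 2.05% of all pooled peaks. Single peaks beside such shares do not show that a word was frequent at these genes. A word is a match of letters and does not show that a factor was bound.

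An optimal summit in the gene or within 5 kb was found at 5 of the 10 core genes, against 19 of 25 other genes of the pathway (76%) and 46.2% of all protein-coding genes, and no test of the difference was made. The 25 genes were chosen with earlier results of these data known, which limits the comparison. The 19 were fng, O-fut1, rumi, mib1, aux, shi, dx, Su(dx), lgd, AP-2alpha, Nct, aph-1, pen-2, gro, CtBP, Smr, nej, sno and skd. Those without one were lqf, Nedd4, spdo, Nak, kto and Bre1. The loci of the 25 genes, 547.3 kb in all, held 36 optimal peaks or 65.8 per Mb, and in 12 of the 19 the strongest peak was nearer to another gene. That count of 12 has no background over all genes here. The strongest lay at the promoter of lgd, which encodes an endosomal regulator of Notch (listed as l(2)gd1, signal 836, relative signal 4.44 ± 0.39, SD, n = 3). It was followed by gro, which encodes the co-repressor Groucho (723, 3.79 ± 0.49), and AP-2alpha, a subunit gene of the endocytic adaptor (594, 3.28 ± 0.26), where the start site of ebi was nearer. The protein O-glucosyltransferase gene rumi had 548 (3.01 ± 0.11) and the O-fucosyltransferase gene O-fut1 386 (2.06 ± 0.48), where the peak was 70 bp from CG13018 and 3872 bp from O-fut1. The N intron peak, at 3.01, was below the peak of lgd in every replicate, and its range overlapped those of gro, AP-2alpha and rumi. The other subunit genes of γ-secretase, named after their values were seen, all had optimal promoter peaks where Psn had none, aph-1 with a signal of 381, Nct with 268 and pen-2 with 196, but those near Nct and pen-2 were closer to CG7006 (33 bp) and Ote (27 bp). Replicate 2 had no summit within 100 bp of the peaks at aph-1 and pen-2, as for the stronger peak of Psn.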

How the data were processed

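Peaks of Jumeau were called by the authors in 3 replicates of embryos. Per the deposited readme files, a relaxed list of each replicate and of the pooled replicates went into the irreproducible discovery rate (IDR) procedure, whose threshold gave the optimal list. Each peak carries a signal, the authors' own value. It also carries, as deposited, a −log10 q value, which was not used. Caller, settings, threshold level and depth: not given in the sources used here. The dm3 lists and the control file that the readme files name were not used here.

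Coordinates are 1-based in dm6, and genes and 23581 start sites came from Ensembl BDGP6.54 (release 115), the same assembly. A summit within 500 bp of any start site was called promoter, otherwise the first of UTR, coding sequence, other exon, intron and intergenic that applied. Replicate peaks were matched by summits within 100 bp, taking the strongest, and were divided by that replicate's median over matched optimal peaks (74.8, 58.1 and 54.5 in replicates 1 to 3). The 10 genes, the other pathway genes and the words were chosen with earlier results of these data known. All 10 genes and their optimal peaks are named, and of the other pathway genes every one with an optimal peak, the strongest 5 with values, besides the γ-secretase subunit genes, chosen after their values were seen. With 1 group no test was made. Assignment and matching were tested on simulated peaks (Python 3.11.15, pandas 2.3.3, pysam 0.24.0).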

Additional observations from a re-analysis of the deposited data

How the results depend on the processing

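Of 79 alternative values, 53 stayed within 1.5 times the count or 1 SD of the value reported. With so few replicates, leaving one out cannot move a mean relative signal by 1 SD. Those alternatives were therefore bound to stay within it and say nothing about stability. The count of genes with an optimal peak was 3 of 10 among the 1922 strongest optimal peaks, against 29.4% of all protein-coding genes, and 3 to 4 when a replicate was left out. The count of 13 optimal peaks became 20 with a flank of 10 kb, 8 in the gene bodies, 4 among the 1922 strongest, 6 when matched in all 3 replicates and 4 to 6 when a replicate was left out. Of the 25 other pathway genes 8 had a peak in the gene body, against 10.9% of all protein-coding genes. Peaks matched in all replicates numbered 10 by overlap of intervals and 6 to 10 when a replicate was left out. Promoter peaks numbered 0 of the 4 peaks among the 1922 strongest and 1 to 3 of the 4 to 6 peaks left when a replicate was left out. Scaled by the median of the whole replicate lists, the relative signal was 9.75 at N, 6.86 at mam, 4.29 at neur, 2.58 at kuz and 2.16 at numb, in the same order. With windows chosen after seeing the data, a forkhead word was held by 0 peaks in a narrower one (within 25 bp of the summit). In a wider one (within 100 bp) a word was held by 4. The shares of all optimal peaks are not given for these windows. With a replicate left out, 1 to 2 of the 4 to 6 peaks left held a word. The sets without a replicate held 2411 to 2655 peaks, so fewer peaks and the replicate cannot be told apart, and the cause of the other changes was not tested. For the numb peak no replicate had a summit within 50 bp, so that alternative gave no value. No paired analysis was possible because there was a single group. Depth is unknown, so the absence of a peak says nothing about absence of Jumeau.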
